A study of Rattus norvegicus with 9 samples.

Results

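The expression of 7 genes for serine, one-carbon and asparagine synthesis, Phgdh, Psat1, Psph, Shmt1, Shmt2, Mthfd2 and Asns, was followed in INS-1E cells. They were picked by name from the 20645 genes of the authors' table, in which each name matched 1 row. INS-1E is a rat insulinoma line that secretes insulin, and the same line was used in all 3 groups. For 24 h the cells received fatty acid-free BSA (BSA), palmitic acid (PA) at 0.5 mM, or the same PA together with cyanidin-3-O-glucoside (C3G), an anthocyanin, at 50 µM (PA + C3G), with 3 libraries per group. The doses were taken from the study's methods, since the labels name only the agents, and no library received C3G without PA. The study's methods describe replicate samples per group and, for its experiments in general, biological replication, whereas the labels give only replicate numbers, so p-values measure the spread between these libraries.

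Cells make serine from the glycolytic intermediate 3-phosphoglycerate in a short chain of steps, which Phgdh opens, Psat1 continues by transferring an amino group from glutamate, and Psph closes by removing the phosphate. The serine hydroxymethyltransferases, Shmt1 in the cytosol and Shmt2 in mitochondria, then split serine into glycine and a one-carbon unit carried on folate, and Mthfd2 oxidises that unit in mitochondria for the synthesis of nucleotides. Asns makes asparagine from aspartate with glutamine as the nitrogen donor, and most of these genes are known targets of ATF4, the transcription factor of the integrated stress response. The cells were grown in RPMI medium, which itself supplies serine, glycine and asparagine.

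The depth of the libraries, as the sum of the authors' estimated counts, ranged from 45559993 to 66730721. Low counts piled up at multiples of 4, so that 1 sequenced fragment was taken as 4 counts. This factor is an assumption, since counts of 1, 2 and 3 also occurred. They made up 2252, 2744 and 2040 values of a gene in a library, against 4044 at a count of 4. If the factor holds, the sums exceed the number of sequenced fragments. All 8 beta cell markers examined, among them Ins1, Ins2 and Pdx1, were expressed in every library. Their summed level was 44689 to 45391 FPKM (the number of fragments per unit of gene length at a common sequencing depth) with BSA, 18515 to 19104 FPKM with PA and 41382 to 47151 FPKM with PA + C3G. Of the 12 markers of other pancreatic, endothelial, blood and connective tissue cells that the table holds, only Gcg, at 1.35 to 31.2 FPKM, and Sox9, at 2.52 to 5.86 FPKM, had a mean of at least 1 FPKM. The part of the beta cell markers' change in the results for these genes was not tested. Since the libraries are bulk samples, a change in the share of cells that express a gene and a change in its RNA per cell cannot be told apart.

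The gene of the first serine enzyme, Phgdh, was at 0 in 8 of 9 libraries, whereas the other 6 genes were well expressed and most of them differed between the groups. PA lowered Psat1, Psph, Shmt1, Shmt2 and Mthfd2, and left Asns without a detectable change. With C3G beside PA, Psat1, Psph, Shmt2, Mthfd2 and Asns were higher than with PA alone, while Shmt1 was not called. Relative to BSA, the PA + C3G group then held less Psat1 and Shmt1, and more Psph and Asns. Under some alternatives given below, the calls of Psph and Asns against BSA were lost. The same held for Psat1 and Mthfd2 in PA + C3G versus PA. Summed over the 6 genes other than Phgdh, the level was 626 ± 50.6 FPKM (SD, n = 3) with BSA, 479 ± 31.2 FPKM (n = 3) with PA and 598 ± 28.1 FPKM (n = 3) with PA + C3G.

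The groups were compared by edgeR's quasi-likelihood test over the 12958 genes with a mean of at least 1 FPKM, and a gene was called at a Benjamini-Hochberg adjusted p-value under 0.05. Of the 7 genes, 6 passed the filter on low values and Phgdh did not. In PA versus BSA, 5 of the 6 were called lower, where 25.2% of all tested genes were called lower, and 0 were called higher, where 25.8% were. With C3G added to PA, 5 were called higher than with PA against 11.1% of all tested genes, and 0 lower against 10.2%. Between PA + C3G and BSA, 2 were called higher against 19% of all tested genes, and 2 lower against 17.9%. When each library was rescaled to the same FPKM sum, the 5 calls in PA + C3G versus PA became 3 and the 4 in PA + C3G versus BSA became 2, while over all genes the split in PA + C3G versus PA went from 1436 higher and 1316 lower to 775 and 2525. Without PA replicate 2 or PA + C3G replicate 1, 3 members were called in PA + C3G versus PA, and without BSA replicate 3, 2 were called in PA + C3G versus BSA. The median log2 fold change of the 6 genes was -0.50 in PA versus BSA and 0.38 in PA + C3G versus PA, where the medians of all tested genes were 0.0030 and -0.00073. The 2 comparisons share the PA libraries, so opposite signs in them are not independent of each other. The study's criterion was a fold change above 2 with a p-value under 0.05. Applied here with the unadjusted edgeR p-value, it was met by 0 of the 6 genes in each comparison, and by 7.56% of all tested genes in PA versus BSA, 1.13% in PA + C3G versus PA and 4.63% in PA + C3G versus BSA.

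**Figure D1:**
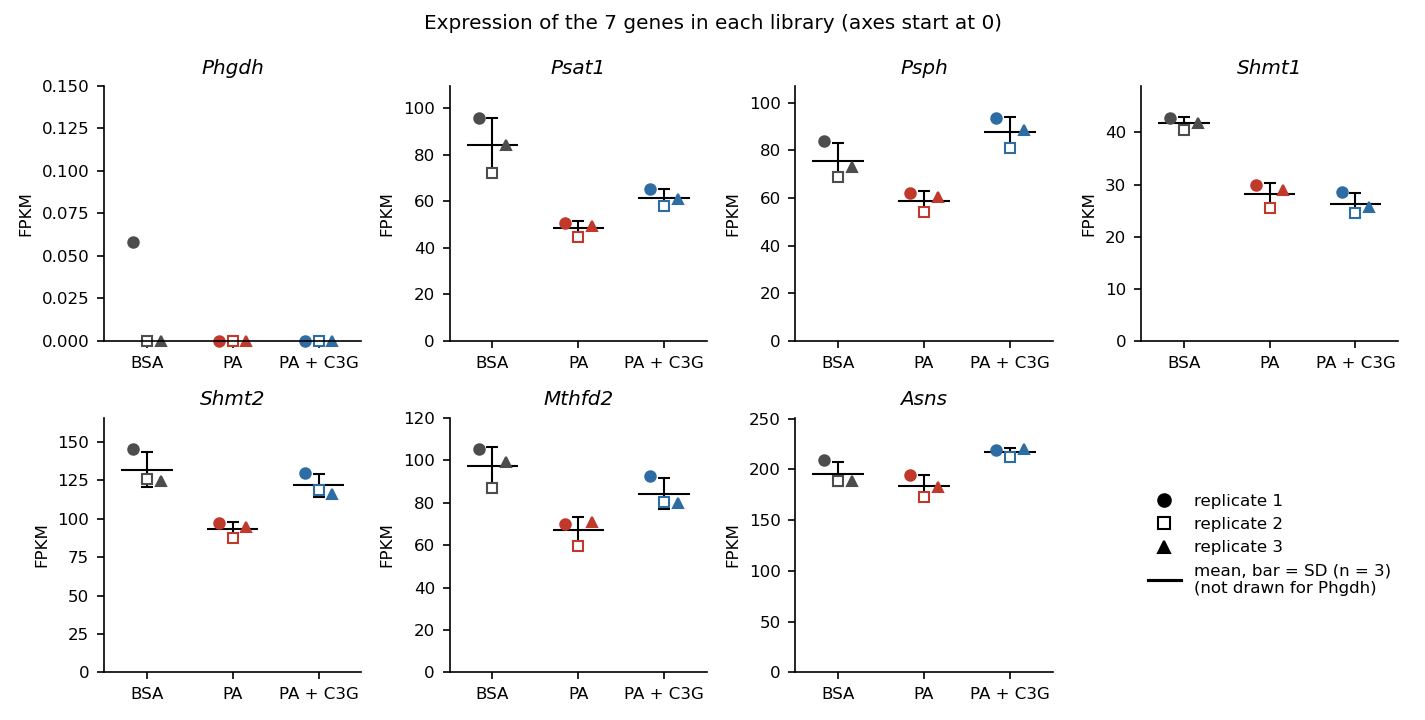
FPKM of each gene (vertical axes, each from 0) in the 3 libraries of the BSA, PA and PA + C3G groups, with symbols for the replicate number and, except for Phgdh, the mean ± SD. All libraries of Psat1, Shmt1, Shmt2, Mthfd2 and Psph are lower with PA than with BSA, Shmt1 alone of the tested genes shows overlapping PA and PA + C3G libraries, and Phgdh is at 0 in 8 of 9 libraries.

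Phgdh (ENSRNOG00000019328, on chromosome 2 from 200484246 to 200513564, minus strand) encodes phosphoglycerate dehydrogenase, which commits 3-phosphoglycerate to serine. It had an estimated count of 8 in BSA replicate 1, or 0.0585 FPKM, and 0 in the other 8 libraries. With 3 fragments, or 12 estimated counts, as the limit that a count of 0 allows, its level in those libraries was at most 0.0868 to 0.127 FPKM, depending on depth. In each of them this was at least 203-fold lower than the FPKM of Shmt1, the lowest of the other members. The table lists 1 transcript for Phgdh and no other gene that overlaps it. Whether its exons were complete in the annotation that the authors counted against was not tested. In the table as a whole, 2233 of 20645 genes had a summed count no higher than that of Phgdh, 1021 of them among the 16275 genes listed as protein coding. The genome build of these and the following positions was not given in the sources used here.

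Psat1 (ENSRNOG00000013971, chromosome 1 from 233124092 to 233145941, minus strand), the aminotransferase of the second step, was at 95.9, 72.4 and 84.1 FPKM in the 3 BSA libraries, at 50.8, 44.8 and 49.5 FPKM with PA and at 65.4, 57.9 and 60.9 FPKM with PA + C3G. No library of one group reached into the range of another, and all PA + C3G libraries lay between the PA and the BSA libraries. Compared with the BSA group, Psat1 was 1.71-fold lower with PA (log2 fold change -0.77, standard error 0.09, edgeR adjusted p = 9.4e-05), the largest fall among the 6 genes. With C3G it was higher than with PA alone by 0.38 on the log2 scale (standard error 0.09, edgeR adjusted p = 0.019). It stayed below BSA, at -0.39 (standard error 0.09, edgeR adjusted p = 0.0089). The rise with C3G was close to the threshold, with an adjusted p-value of 0.057 when each library was rescaled to the same FPKM sum. It missed the threshold as well without PA replicate 2 (adjusted p = 0.065), PA replicate 3 (0.053), PA + C3G replicate 1 (0.066) or PA + C3G replicate 3 (0.051), all by edgeR.

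Psph (ENSRNOG00000000925, chromosome 12 from 30514112 to 30526557, plus strand), the phosphatase that releases serine, was at 84.0, 69.0 and 73.2 FPKM with BSA, at 62.1, 54.1 and 60.5 FPKM with PA and at 93.7, 81.1 and 88.5 FPKM with PA + C3G. The PA libraries lay below all others, whereas the lowest PA + C3G library was below the highest BSA library. The log2 fold change of Psph in PA versus BSA came to -0.33 (standard error 0.08, edgeR adjusted p = 0.0077). In PA + C3G versus PA it showed the largest rise of the 6 genes, 1.53-fold (log2 fold change 0.61, standard error 0.08, edgeR adjusted p = 0.0012). Its level over BSA, a log2 fold change of 0.28 (standard error 0.08, edgeR adjusted p = 0.024), was not called with rescaling to the same FPKM sum (adjusted p = 0.072) or with limma on log2(FPKM + 1) (adjusted p = 0.069). Nor was it called without BSA replicate 2 (edgeR adjusted p = 0.092), BSA replicate 3 (0.090), PA + C3G replicate 1 (0.090) or PA + C3G replicate 3 (0.071).

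The genes of the closing steps of the serine chain changed their order of expression. The ratio of Psat1 to Psph FPKM within a library was 1.14, 1.05 and 1.15 with BSA, 0.818, 0.827 and 0.818 with PA, and 0.698, 0.714 and 0.687 with PA + C3G. Psat1 was the more abundant of the pair in all BSA libraries and Psph in all libraries with PA. This ratio was computed after the values of both genes had been seen and is given without a test.

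Shmt1 (ENSRNOG00000005275, chromosome 10 from 47031050 to 47059216, minus strand), the cytosolic serine hydroxymethyltransferase, was at 42.8, 40.5 and 41.9 FPKM with BSA, at 29.9, 25.6 and 28.9 FPKM with PA and at 28.6, 24.6 and 25.7 FPKM with PA + C3G. All BSA libraries stood above all others, and the PA and PA + C3G libraries overlapped. Against BSA, the log2 fold change of Shmt1 was -0.54 with PA (standard error 0.07, edgeR adjusted p = 0.00014) and -0.60 with PA + C3G (standard error 0.07, edgeR adjusted p = 0.00012). Between PA + C3G and PA it was -0.06 (95% interval -0.22 to 0.10, edgeR adjusted p = 0.61), so that a rise of the size seen for Psph or Shmt2 lay outside the interval.

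Shmt2 (ENSRNOG00000008106, chromosome 7 from 70824715 to 70829815, minus strand), its mitochondrial counterpart, was at 145, 126 and 125 FPKM with BSA, at 97.2, 87.4 and 94.3 FPKM with PA and at 130, 119 and 116 FPKM with PA + C3G. The PA libraries lay below all others, and the PA + C3G and BSA libraries overlapped. Compared with the BSA group, Shmt2 was 1.39-fold lower with PA (log2 fold change -0.48, standard error 0.07, edgeR adjusted p = 0.00029). Compared with the PA group it was 1.34-fold higher with PA + C3G (log2 fold change 0.42, standard error 0.07, edgeR adjusted p = 0.0029). The remaining difference to BSA was -0.06 (95% interval -0.21 to 0.10, edgeR adjusted p = 0.57). The direction of this last value turned, to 0.0084, without BSA replicate 1.

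Since Shmt1 and Shmt2 carry out the same reaction in different compartments, their ratio was compared within libraries, which needs no scaling between libraries. The Shmt2 to Shmt1 ratio of FPKM was 3.39, 3.10 and 2.98 with BSA, 3.25, 3.42 and 3.27 with PA, and 4.54, 4.84 and 4.51 with PA + C3G. The BSA and PA libraries overlapped, and all PA + C3G libraries stood above both. On the log2 scale the ratio was 0.07 higher with PA than with BSA (exact permutation test over libraries, two-sided, p = 0.3), 0.48 higher with PA + C3G than with PA (p = 0.1 by the same exact test) and 0.55 higher with PA + C3G than with BSA (p = 0.1 by the same exact test). The smallest p-value that 3 libraries against 3 allow is 0.1, so none of these tests could reach 0.05.

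**Figure D2:**
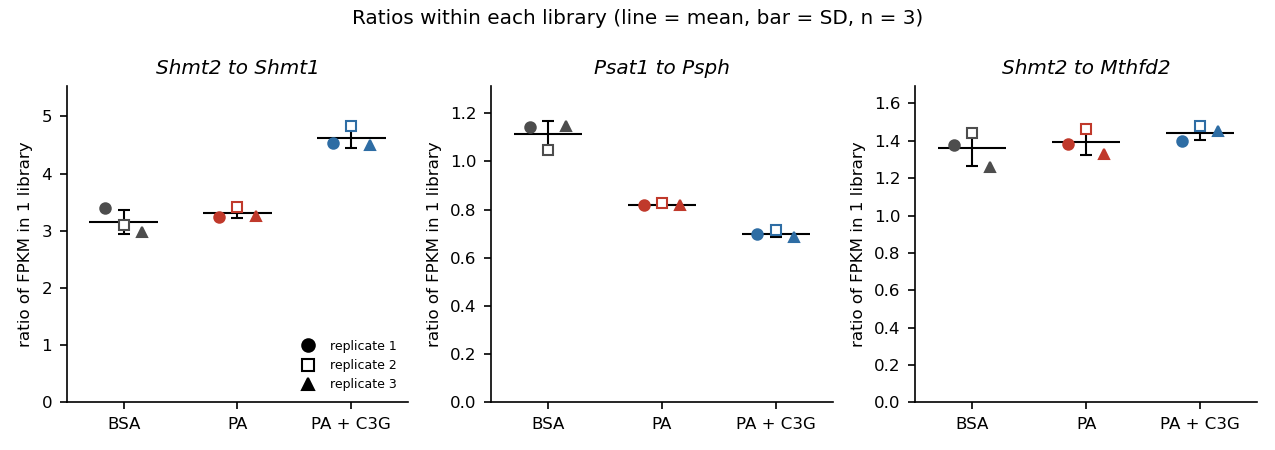
Ratio of FPKM between a pair of genes within each library (vertical axes, from 0) for the BSA, PA and PA + C3G groups, with the mean ± SD of 3 libraries. Shmt2 to Shmt1 is at 4.51 to 4.84 with PA + C3G and at most 3.42 elsewhere, Psat1 to Psph is lower in each further group, and the ranges of Shmt2 to Mthfd2 overlap between groups.

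The promoters of Shmt1, Shmt2 and Mthfd2 are shown because the levels of Shmt1 and Shmt2 parted with C3G, while Mthfd2 was the member whose pattern over the libraries was closest to that of Shmt2. Each is the stretch of 250 bases before the gene start in RefSeq, build GRCr8, on the strand of the gene, with capitals for the letters CACGTG, the E-box that MYC and related factors can bind. They lie at chr10:45990342-45990591, chr7:65249568-65249817 and chr4:117380351-117380600, all on the minus strand.
Shmt1: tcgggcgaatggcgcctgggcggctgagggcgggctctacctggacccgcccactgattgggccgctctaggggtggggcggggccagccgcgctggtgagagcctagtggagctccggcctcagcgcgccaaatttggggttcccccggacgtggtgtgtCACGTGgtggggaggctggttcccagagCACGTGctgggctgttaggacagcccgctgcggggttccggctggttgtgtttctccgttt
Shmt2: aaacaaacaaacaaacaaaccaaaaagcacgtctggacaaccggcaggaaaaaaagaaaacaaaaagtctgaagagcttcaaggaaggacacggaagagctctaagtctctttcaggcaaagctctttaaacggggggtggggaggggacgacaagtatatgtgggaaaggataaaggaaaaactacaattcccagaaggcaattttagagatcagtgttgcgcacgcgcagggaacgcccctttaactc
Mthfd2: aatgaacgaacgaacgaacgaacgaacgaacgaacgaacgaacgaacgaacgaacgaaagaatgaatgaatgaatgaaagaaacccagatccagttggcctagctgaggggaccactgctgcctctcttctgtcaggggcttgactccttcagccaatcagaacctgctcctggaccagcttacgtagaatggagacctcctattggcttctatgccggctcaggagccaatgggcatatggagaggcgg

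In windows of 300 bases, which add the bases after the start, all 7 genes were searched on both strands for 4 words. CACGTG occurred in 1 of the 7 windows, that of Shmt1, at positions -89 to -84 and -61 to -56 from the start, and in 6.42% of all 33469 promoter windows of the RefSeq table. TGATGNAA, the core of the C/EBP-ATF response element through which ATF4 acts, occurred in 0 of the 7 and in 3.98% of all windows. TGACGTCA, the cAMP response element, occurred in 0 of the 7 and in 1.83% of all windows. TGACNNNGC, the core of the antioxidant response element, occurred in 1 of the 7, that of Phgdh, and in 12.1% of all windows, and overlaps the cAMP response element in its first letters. These are matches of letters in 1 window per gene and say nothing about binding.

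Mthfd2 (ENSRNOG00000010833, chromosome 4 from 115004448 to 115015965, minus strand), the mitochondrial methylenetetrahydrofolate dehydrogenase, was at 105, 87.2 and 99.1 FPKM with BSA, at 70.2, 59.7 and 71.0 FPKM with PA and at 92.9, 80.2 and 79.8 FPKM with PA + C3G. The PA libraries lay below all others, and the PA + C3G and BSA libraries overlapped, as for Shmt2. Mthfd2 differed by a log2 fold change of -0.51 between PA and BSA (standard error 0.09, edgeR adjusted p = 0.0011), 0.37 in PA + C3G versus PA (standard error 0.09, edgeR adjusted p = 0.018) and -0.14 in PA + C3G versus BSA (95% interval -0.35 to 0.06, edgeR adjusted p = 0.25). The rise with C3G missed the threshold when libraries were rescaled to the same FPKM sum (edgeR adjusted p = 0.054). It also missed it without PA replicate 2 (0.058) or PA + C3G replicate 1 (0.061). The ratio of Shmt2 to Mthfd2, enzymes of the same mitochondrial pathway, stayed between 1.26 and 1.48 in all 9 libraries.

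Asns (ENSRNOG00000007546, chromosome 4 from 33743364 to 33761163, minus strand), the asparagine synthetase, was at 209, 189 and 189 FPKM with BSA, at 195, 173 and 182 FPKM with PA and at 219, 212 and 220 FPKM with PA + C3G. The PA and BSA libraries overlapped, and all PA + C3G libraries stood above both. Between PA and BSA its log2 fold change was -0.07 (95% interval -0.19 to 0.05, edgeR adjusted p = 0.31). Relative to PA alone, it was 0.28 with PA + C3G (standard error 0.05, edgeR adjusted p = 0.0060), a 1.21-fold rise. Relative to BSA, it was 0.21 (standard error 0.05, edgeR adjusted p = 0.012). The last call was lost with rescaling to the same FPKM sum (edgeR adjusted p = 0.067), with limma on log2(FPKM + 1) (adjusted p = 0.058) and without BSA replicate 3 (edgeR adjusted p = 0.061).

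**Figure D3:**
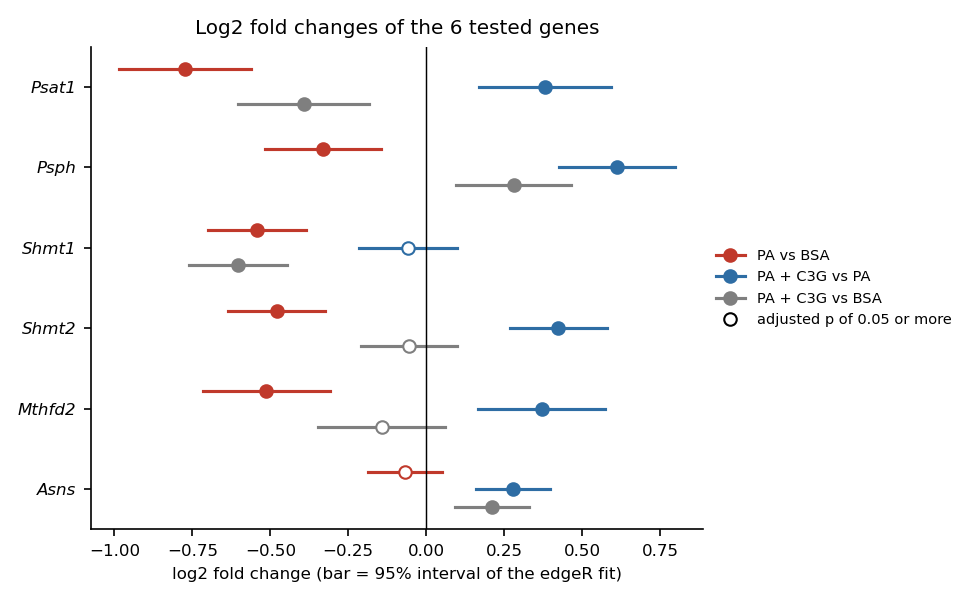
Log2 fold changes (horizontal axis) of the 6 tested genes in PA versus BSA, PA + C3G versus PA and PA + C3G versus BSA, with the 95% interval of the edgeR fit. The PA versus BSA intervals lie below 0 except for Asns, the PA + C3G versus PA intervals lie above 0 except for Shmt1, and open points mark an adjusted p-value of 0.05 or more.

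In FPKM, which corrects for gene length, the order of the levels in the BSA group was Asns, Shmt2, Mthfd2, Psat1, Psph, Shmt1 and Phgdh. Mthfd2 and Psat1 overlapped over the BSA libraries, as did Psat1 and Psph, and the other neighbours did not. In the PA group Psph stood before Psat1, and the only overlapping neighbours were Mthfd2 and Psph. In the PA + C3G group Psph also stood before Mthfd2, again with overlap, and Psat1 came next. Asns, Shmt2, Shmt1 and Phgdh kept their places in all groups.

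The counts for the pathway's other genes stand beside the shares of all tested genes, 25.8% higher and 25.2% lower in PA versus BSA, and 11.1% higher and 10.2% lower in PA + C3G versus PA. Of 20 further folate enzymes and carriers, 19 were in the table and 17 were tested, of which PA raised 4 and lowered 5 (median log2 fold change -0.02), which is near the shares of all tested genes. Tyms, which makes thymidylate for DNA, fell by 0.61 on the log2 scale (edgeR adjusted p = 4.2e-05), and Ggh, which trims stored folates, fell by 0.63 (edgeR adjusted p = 6.5e-05). Mthfd1 and Mthfd1l, the cytosolic and mitochondrial enzymes around formyl-folate, fell by 0.46 and 0.50 (edgeR adjusted p = 0.00032 and 0.0001). With C3G relative to PA, 2 of the 17 rose and 2 fell. Ggh rose by 0.48 (edgeR adjusted p = 0.0020), and Mtr, the methionine synthase, fell by 0.43 (edgeR adjusted p = 0.0087). Mthfd1 and Mthfd1l were not called there, at 0.07 and 0.12 (edgeR adjusted p = 0.50 and 0.22), and both stayed below BSA, at -0.39 and -0.38 (edgeR adjusted p = 0.0015 and 0.00094). Aldh1l2, the mitochondrial formyl-folate dehydrogenase, was at 6.06 ± 1.33, 7.15 ± 1.51 and 8.91 ± 1.59 FPKM (SD, n = 3) with BSA, PA and PA + C3G and was called higher only in PA + C3G versus BSA, at 0.62 (edgeR adjusted p = 0.035). Mthfd2l, the paralog of Mthfd2, was below the filter, with a mean of at most 0.01 FPKM per group.

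Of 18 carriers and consumers of serine and glycine, 12 were tested, of which PA raised 6 and lowered 2, and PA + C3G versus PA showed 4 higher and 4 lower, where 25.8% and 25.2% of all tested genes were called in the former comparison and 11.1% and 10.2% in the latter. Gcsh, the hydrogen carrier of the glycine cleavage system, fell by 1.23 on the log2 scale with PA (edgeR adjusted p = 1.3e-06). Gcat, which releases glycine from threonine breakdown, and Sfxn3, a mitochondrial serine carrier, rose by 1.20 and 0.77 (edgeR adjusted p = 4.9e-06 and 1.5e-06). With C3G, Gcat and Sfxn3 fell by 0.45 and 0.35 relative to PA, and Slc1a4, a neutral amino acid carrier of the plasma membrane, rose by 0.24 (edgeR adjusted p = 0.0087, 0.0018 and 0.0071). Of 16 enzymes of aspartate, glutamine, proline and asparagine metabolism, 15 were tested, with 6 higher and 3 lower with PA, and 1 higher and 3 lower in PA + C3G versus PA. Glul, which makes glutamine, rose by 0.89 with PA (edgeR adjusted p = 6.1e-06). Pycr1, of proline synthesis, rose by 1.28 with PA (edgeR adjusted p = 5.6e-06) and fell by 0.69 with C3G (edgeR adjusted p = 0.0018). Gls2, which releases glutamate from glutamine, fell by 0.73 with C3G relative to PA (edgeR adjusted p = 0.0076).

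**Figure D4:**
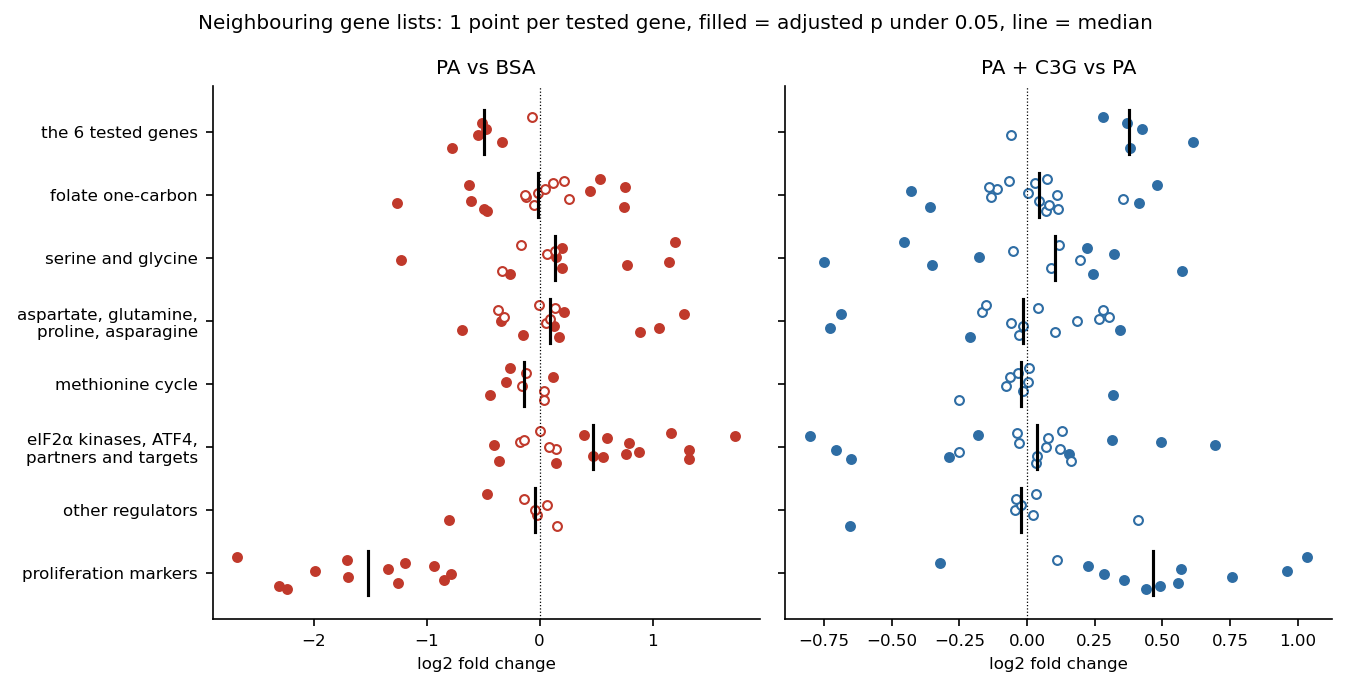
Log2 fold changes (horizontal axes) of the 6 tested genes and of the tested genes of 7 other lists, in PA versus BSA and in PA + C3G versus PA, with filled points for an adjusted p-value under 0.05 and a line at the median. The median of the stress response list lies at 0.48 in PA versus BSA, while those of the 6 genes and of the proliferation markers lie at -0.50 and -1.52.

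Of 19 genes for the eIF2α kinases, ATF4, its partners and its targets, PA raised 12 and lowered 2 (median log2 fold change 0.48), against 25.8% and 25.2% of all tested genes. Atf4 mRNA was at 225 ± 18.7 FPKM (SD, n = 3) with BSA, 307 ± 30.6 FPKM (n = 3) with PA and 307 ± 17.9 FPKM (n = 3) with PA + C3G. It rose with PA (log2 fold change 0.48, edgeR adjusted p = 0.00082), where 5 of the 6 serine, one-carbon and asparagine genes fell, and was not called between PA + C3G and PA (log2 fold change 0.04, edgeR adjusted p = 0.80). Ppp1r15a, which restores translation, Eif2ak3, which encodes PERK, and Ddit3, which encodes CHOP, rose with PA by 1.73, 1.33 and 1.33 on the log2 scale (edgeR adjusted p = 1.7e-08, 1.9e-07 and 6.5e-07). With C3G relative to PA, 4 of the 19 were higher and 5 lower, against 11.1% and 10.2% of all tested genes. Ppp1r15a fell by 0.80, Eif2ak3 by 0.65 and Ddit3 by 0.70, whereas Nupr1, a stress-induced chromatin protein, rose by 0.69 (edgeR adjusted p = 2.7e-05, 0.00021, 0.0004 and 0.00032). In PA + C3G versus BSA, 16 of the 19 were higher and 1 lower (median 0.32), against 19% and 17.9% of all tested genes. Ppp1r15a, Eif2ak3 and Ddit3 remained above BSA by 0.93, 0.68 and 0.62 (edgeR adjusted p = 8.9e-07, 2.4e-05 and 0.00017). The protein level and translation of ATF4 were not measured in these libraries.

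All 12 proliferation markers examined fell with PA (median log2 fold change -1.52), where 25.2% of all tested genes were called lower. Among them were the replication helicase genes Mcm5 and Mcm6 at -1.99 and -1.35 and Mki67 at -2.24 (edgeR adjusted p = 5.5e-09, 1.4e-08 and 1.4e-08). With C3G relative to PA, 10 were higher and 1 lower (median 0.46), against 11.1% and 10.2% of all tested genes. Mcm5, Mcm6 and Mcm3 rose by 0.96, 0.57 and 0.76 (edgeR adjusted p = 1.1e-05, 3.2e-05 and 0.00022). All 12 remained below BSA in the PA + C3G group, with a median log2 fold change of -0.99, where 17.9% of all tested genes were called lower. Of the 6 genes, Psat1 and Shmt1 were called lower there, Psph and Asns were called higher, and Shmt2 and Mthfd2 were not called. The part of the markers' change in that of the serine and one-carbon genes was not tested.

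The genes whose patterns were most like each member were found from the root mean square difference of log2 CPM, counts at a common TMM-scaled library size, over the 9 libraries, each gene centred on its own mean, among 12952 genes. For Psph these were Nupr1 and Nupr1l1, with a root mean square difference of 0.054 and 0.058, where Psph itself varied with an SD of 0.28. Nupr1 was at 105, 77.6 and 122 FPKM as the mean of the BSA, PA and PA + C3G libraries. The Nupr1 to Nupr1l1 ratio lay between 1.07 and 1.08 in all 9 libraries, so they may share reads as near-identical copies, and the part of shared reads in their values was not tested. Cd300lf was among the closest to Psat1 (0.060), and Shmt1 came closest to Ube2s and Tuba1a (0.049 and 0.053). For Shmt2 they were Sema4b and Myt1 (0.060 and 0.061), for Mthfd2 Tubb2a and Carhsp1 (0.052 and 0.066), and for Asns Tgfbi and Tmem185a (0.042 and 0.044). Among the members themselves, Shmt2 and Mthfd2 were the closest pair at 0.071, and Psph and Shmt1 the most distant at 0.38.

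**Figure D5:**
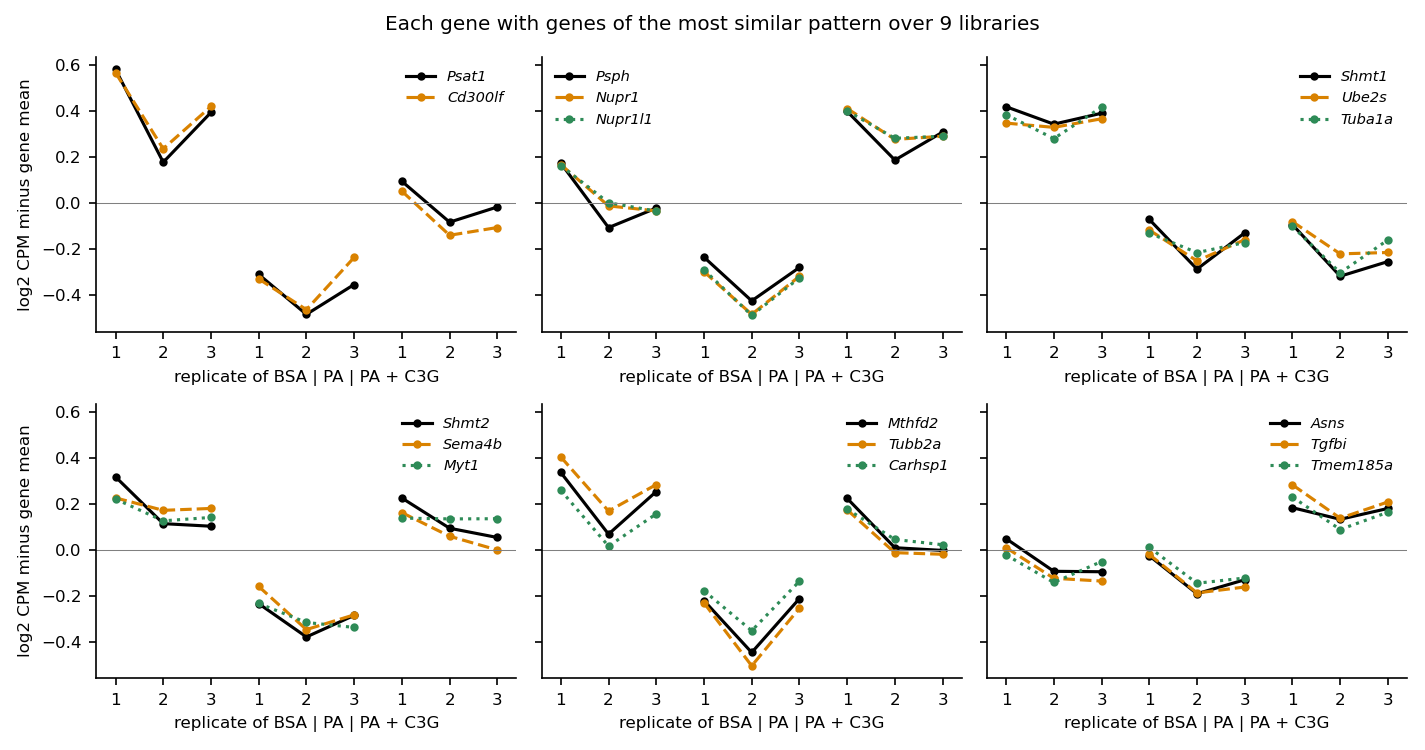
Log2 CPM minus the mean of the gene (vertical axis) in the 9 libraries, by replicate within the BSA, PA and PA + C3G groups, for each tested gene and the 2 genes closest to it, of which 1 is drawn for Psat1. Replicate 2 is the lowest PA library in all 6 panels for the gene itself, and Psph is drawn with Nupr1 and Nupr1l1, whose lines nearly coincide.

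Across the 6 tested genes, replicate 1 had the highest FPKM of its group for 6 genes with BSA, 5 with PA and 5 with PA + C3G. Replicate 2 had the lowest for 4, 6 and 4 genes. The genes were measured in the same libraries, so their differences between groups are not independent of each other.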

How the data were processed

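RNA-seq of 9 INS-1E libraries was analysed. Poly(A)-selected RNA was made into dUTP-marked libraries. The authors deposited 1 table with FPKM, scaled to gene length and mapped fragments, and with estimated counts, not normalized. The submitters' processing notes name cutadapt 1.9, HISAT2 2.0.4, StringTie 1.3.4d, DESeq2 and edgeR, and the genome build was not given in the sources used here. Estimated counts, whole numbers as deposited, were tested with edgeR 4.0.16 (R 4.3.3) on all 9 libraries after TMM normalization, keeping genes whose FPKM averaged 1 or more over all libraries, with adjustment over all 12958 genes. Alternatives were median-ratio size factors, rescaling to the same FPKM sum, DESeq2 1.42.0, limma 3.58.1 on log2(FPKM + 1) or log2(FPKM + 0.1), no filter or a minimum of 5 in its place, a fit of the compared groups alone, the replicate number as a block, counts divided by 4, and each library left out in turn. The procedure was run on counts simulated from its own fit with few changed genes, which does not test the normalization of these libraries. Named genes are the members, up to 3 per list and comparison by p-value, 5 genes fixed by name (Atf4, Mthfd1, Mthfd1l, Mthfd2l, Aldh1l2) and the 2 genes most like each member. The markers Ins1, Ins2, Pdx1, Gcg and Sox9 are also named, and some genes that the rule picks are not reported here. Members, lists and promoter words were chosen with earlier results of these data known. Promoters were read from RefSeq (GRCr8), where all 7 genes matched by symbol.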

Additional observations from a re-analysis of the deposited data

How the results depend on the processing

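In PA versus BSA, the same number of members, 5, was called under each of the 19 alternatives. In PA + C3G versus PA the number called fell from 5 to 3 with rescaling to the same FPKM sum, and lay between 3 and 5 when 1 library was left out. In PA + C3G versus BSA it fell from 4 to 2 with the same rescaling, with limma on log2(FPKM + 1) and with limma on log2(FPKM + 0.1), and lay between 2 and 4 with 1 library left out. The cause was not tested. Of 342 single-gene values (6 genes, 3 comparisons, 19 alternatives), 322 kept their direction and side of the threshold, 19 kept the direction and lost the call, and 1 turned, the uncalled Shmt2 in PA + C3G versus BSA, to 0.0084 without BSA replicate 1, with a range of -0.11 to 0.0084 over the libraries left out. The difference in the Shmt2 to Shmt1 ratio moved by less than the spread between replicates under each alternative that applies to it.

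Rescaling to the same FPKM sum changed the split of all called genes from 1436 higher and 1316 lower to 775 and 2525 in PA + C3G versus PA, and from 2462 and 2321 to 1891 and 3038 in PA + C3G versus BSA, where limma on log2(FPKM + 1) gave 1850 and 3091. It moved the median of all genes in PA + C3G versus PA to -0.09. Without PA replicate 3, 1718 genes were called there in place of 2752. With the replicate number as a block, 5, 5 and 4 members were called in the 3 comparisons, as without it. Neither the labels nor the methods say that a number marks a shared batch or day, so the numbers were not taken as pairs. The correlation of same-numbered libraries' deviations over all genes, which are not independent replicates, averaged 0.015 in PA versus BSA, 0.054 in PA + C3G versus PA and -0.039 in PA + C3G versus BSA. In PA + C3G versus PA every library correlated best with its own number, which was not so in the other comparisons. In PA versus BSA the standard error was smaller with the block for all 6 tested genes. For Psat1 and Psph it was 0.05 and 0.04, against 0.09 and 0.08 without the block. Whether the libraries were paired by number was not tested.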

Other observations

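Of 10 genes listed around the methionine cycle, not all of them enzymes of the cycle itself, 8 were tested. PA raised 1 and lowered 3 of these, where 25.8% and 25.2% of all tested genes were called higher and lower. Mat2a, which makes the methyl donor S-adenosylmethionine, fell by 0.44 on the log2 scale with PA and rose by 0.32 with C3G relative to PA (edgeR adjusted p = 0.00014 and 0.0047). It was the only gene of that list called in PA + C3G versus PA, where 11.1% of all tested genes were called higher and 10.2% lower. Ahcyl1 and Amd1 fell with PA by 0.29 and 0.26 (edgeR adjusted p = 0.00013 and 0.00031), and their log2 fold changes in PA + C3G versus PA were 0.00 and 0.01.

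Of 7 other reported regulators of serine synthesis genes, PA lowered 2 and raised 0, where 25.2% and 25.8% of all tested genes were called lower and higher. Mycn fell by 0.80 with PA (edgeR adjusted p = 0.00062). Myc was at a mean of 39.7 FPKM with BSA, 43.5 FPKM with PA and 26.9 FPKM with PA + C3G. In PA + C3G versus PA, 0 of the 7 were called higher and 1 lower, against 11.1% and 10.2% of all tested genes. The 1 called lower was Myc, at -0.65 (edgeR adjusted p = 0.00033), while Mycn, at 0.41, was not called (edgeR adjusted p = 0.051). The part of these regulators in the members' changes was not tested. Nfe2l2, which encodes NRF2, was at a mean of 19.1, 18.5 and 18.3 FPKM and was not called in any comparison.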
